A study of Homo sapiens with 1 sample.

Results

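The 10 genes described here, ARID1B, ARID2, BRD7, BRD9, BICRA, SS18, DPF1, DPF2, PHF10 and BCL7A, encode subunits of the SWI/SNF chromatin remodelling complexes. To ask how open the chromatin at these genes was, every ATAC-seq peak was taken whose summit, the highest point of the peak, lay inside the GENCODE record of 1 of them or within 20 kb of either end. This gave 86 of the 88615 peaks on the 24 primary chromosomes of hg38, from a list of 88676 in all.

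SWI/SNF complexes use the energy of ATP to slide or eject nucleosomes, and they exist as 3 assemblies with a common core. Canonical BAF (cBAF) carries ARID1A or ARID1B and a double PHD finger protein of the DPF family, PBAF carries ARID2, PBRM1, BRD7 and PHF10, and noncanonical BAF (ncBAF) carries BRD9 and BICRA or BICRAL. SS18 belongs to cBAF and ncBAF, and BCL7 proteins are found in all 3. PHF10 takes in PBAF the place that DPF1, DPF2 or DPF3 takes in cBAF, and PBRM1, on chromosome 3, is among the genes most often mutated in clear cell renal cell carcinoma.

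The sample was 786-O, an established human line of clear cell renal cell carcinoma, carrying an empty vector and no DPF3 construct. There was 1 library without a replicate, so no test between samples was possible and no p-value is given, and the DPF3a-overexpressing cells of the study are not analysed here. In ATAC-seq the Tn5 transposase inserts adapters into open DNA, so a peak measures accessibility and not transcription, which was not measured in this library. Of the marker genes set beside the members, 5 of 6 of renal epithelium and mesenchyme had a promoter peak, with folds of 31.9 at PAX8, 22.7 at PAX2, 43.3 at KRT8, 8.24 at KRT18 and 47.9 at VIM. LHX1 had no peak at all within 20 kb, but its whole region has a copy elsewhere in hg38, so this is not a measurement. Among genes of other cell types 1 of 7 had a promoter peak, the neuroendocrine gene SYP (16.0), whereas PTPRC, CD3E, CDH5, PECAM1, ALB and NEUROD1 had none. Most of the PTPRC region also has such a copy, so its lack of a peak is not a measurement either.

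Each peak has a fold, the authors' enrichment of the summit pileup over 1 genome-wide background, and the pileup, the depth of reads over the summit, was recovered from it as a whole number. Intervals beside folds are exact Poisson 95% intervals of the pileup, which cover counting error only. The promoters of a gene were the stretches between 1 kb before and 100 bp after each of its annotated transcription start sites (TSSs), and the canonical TSS is that of the transcript GENCODE tags as canonical.

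All 10 genes had a peak in the gene or its flanks, compared with 87.5% of all protein-coding genes. A promoter peak was present in 9 of the 10, where the share over protein-coding genes was 61.4%, and the exception was ARID2. With the canonical TSS alone it was 7 of 10, where the share over protein-coding genes was 52.2%, since BRD7 and PHF10 then also had none. The presence of a peak says little about its height. The strongest promoter fold was 39.7 at DPF1, 33.0 at BRD9, 28.3 at SS18, 27.8 at ARID1B, 11.9 at DPF2, 10.8 at BICRA, 9.28 at BRD7, 6.70 at PHF10 and 5.67 at BCL7A. The median was 11.9 over these 9 genes and 25.8 over the 12299 protein-coding genes with a promoter peak (quartiles, 16.0 and 39.2). The median of so few genes is unstable, and it was 19.8 without PHF10, part of whose promoter has a copy elsewhere in the reference, and 27.8 with a score above 100, a minimum that removes weak peaks.

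Over all TSSs, the folds fell into a higher set of 4 genes and a lower set of 5 with a gap between ARID1B and DPF2. Their counting intervals did not meet, as that of ARID1B reached down to 21.0 and that of DPF2 up to 17.7. The cut was placed at this gap in the sorted folds, so the intervals beside it do not test for separate sets. This split rested on internal start sites. At the canonical TSS alone ARID1B had 12.9 (8.44 to 18.9) and DPF1 17.0 (11.8 to 23.8), and the interval of ARID1B then overlapped that of DPF2. Within the lower set every interval overlapped that of its neighbour, so the order there is not resolved at this depth. The same holds for the order of DPF1, BRD9, SS18 and ARID1B. All 5 lower genes stayed under the median of 25.8 with the upper end of their intervals. For comparison, 18 of the 21 other SWI/SNF genes had a promoter peak, with a median of 19.3 and a range of 8.24 to 91.2, so low promoter folds also occurred among the other subunits. SMARCB1, counted among those without a peak, lay wholly within a stretch that has a copy elsewhere in hg38, so its promoter was not measured.

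**Figure D1:**
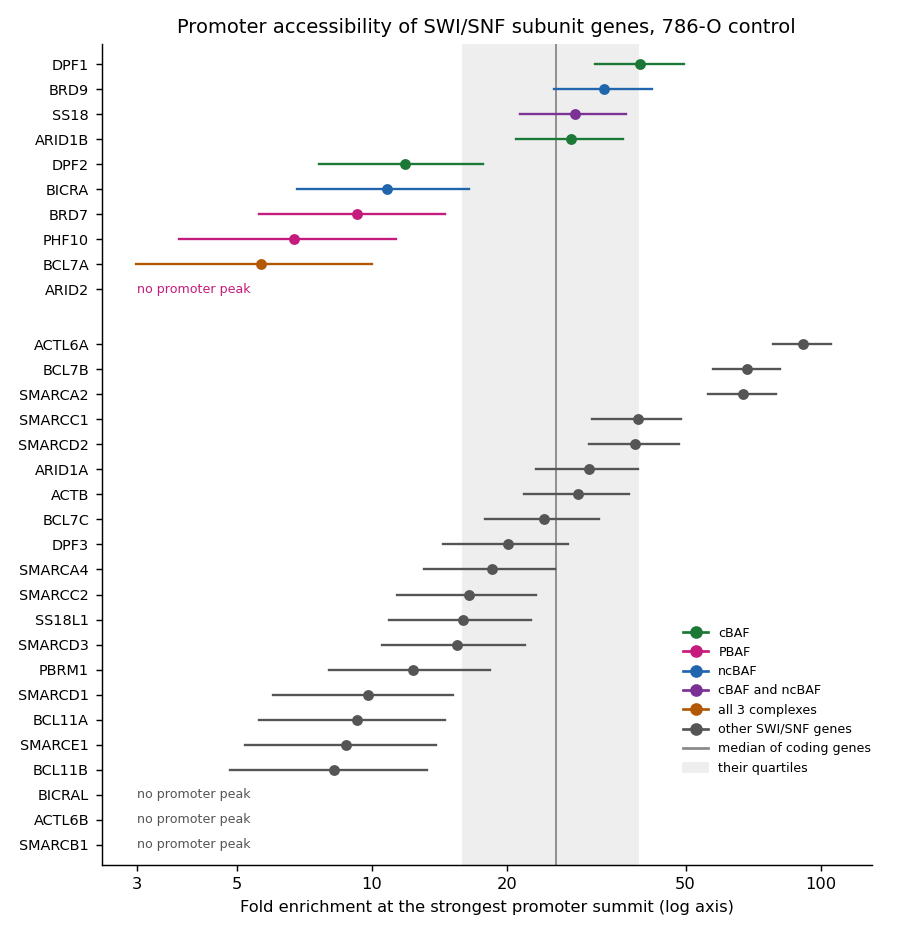
Fold enrichment at the strongest promoter summit of each SWI/SNF gene in the 1 control library, on a log axis. Points are folds, horizontal lines are exact Poisson 95% counting intervals, colours give the complex of the 10 members (top block), grey points are the other SWI/SNF genes, and the vertical line and grey band are the median (25.8) and quartiles of protein-coding genes. DPF1, BRD9, SS18 and ARID1B lie at or above the median, and DPF2, BICRA, BRD7, PHF10 and BCL7A lie below the lower quartile of 16.0. At the canonical TSS alone, not drawn, ARID1B (12.9) would lie below that quartile and DPF1 (17.0) below the median. Both reference values are of the strongest promoter over all TSSs, and their counterparts at canonical TSSs are not given.

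The double PHD finger paralogues DPF1, DPF2 and PHF10 were compared first, for their place in the complexes. In cBAF, DPF1 or DPF2 takes the position open to DPF3, and PHF10 takes the matching position in PBAF. PHD fingers of this family read acylated lysines on histone H3. DPF1 had 2 peaks at its own start sites, and DPF2 and PHF10 had 1 each. DPF1 (ENSG00000011332.22, chr19:38211006-38229714, minus strand), best known from the neuronal form of the complex, had 2 peaks, both at its own TSSs. The summit near its canonical TSS lay 128 bp upstream of it with a fold of 17.0 (11.8 to 23.8), at a pileup of 32. The stronger one had a fold of 39.7 (31.4 to 49.5), at a pileup of 76, and lay 10018 bp downstream in intron 9 of the canonical transcript, 225 bp upstream of the TSS of a transcript with a retained intron. That transcript is not annotated as coding, so the highest promoter fold among the members belongs to an internal site of DPF1. At the coding TSSs 4.471 and 5.492 kb upstream of the canonical one there was no peak, and none lay in the 20 kb flanks on either side. Both DPF1 summits are shown here because they differ in sequence as well as in fold.

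The first is the 101 bp around the summit near the canonical TSS, chr19:38224300-38224400 in hg38, and the second the 101 bp around the internal summit, chr19:38214154-38214254, both read on the minus strand. Capitals mark GGGCGG, the core of the GC box bound by SP and KLF factors, in the first, and the TEAD motif (GGAATG) and the RUNX motif (TGTGGT) in the second. The start site window had 79.2% G or C and the internal window 56.4%.
DPF1 start site summit: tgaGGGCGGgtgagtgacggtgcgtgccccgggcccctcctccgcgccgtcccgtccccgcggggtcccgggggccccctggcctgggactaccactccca
DPF1 internal summit: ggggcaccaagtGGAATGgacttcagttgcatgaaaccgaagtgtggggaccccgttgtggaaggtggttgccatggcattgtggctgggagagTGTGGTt

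DPF2 (ENSG00000133884.11, chr11:65333843-65354262, plus strand), the broadly expressed member of the family, had a single peak inside the gene. Its summit lay 52 bp downstream of the canonical TSS, in exon 1, with a fold of 11.9 (7.62 to 17.7), at a pileup of 22. Promoters of 15.2% of protein-coding genes with a promoter peak were lower. The neighbours were more open than DPF2 itself. The promoter of CDC42EP2, upstream, had summits with folds of 20.6 and 9.79, and that of TIGD3, just beyond the 3′ end, one with a fold of 24.7. The strongest peak in the region (39.7) lay 37415 bp downstream of the TSS outside both. The window at the DPF2 summit was the only one of the 86 with AAGATGGCG, a core of the YY1 motif, which was present at 0.676% of all promoter peaks. It is not printed, as it lies in exon 1. The unprinted exon apart, the window continues into intron 1 at chr11:65333919-65333954 with a GC box, in capitals, and the 99 bp just before the canonical TSS, chr11:65333751-65333849, hold no match to any of the motifs. Both stretches are on the plus strand. With the exon included, the summit window held SP/KLF, YY1 and RUNX matches, 3 of the 11 motifs, and no other own promoter summit held as many.
DPF2 before the start site: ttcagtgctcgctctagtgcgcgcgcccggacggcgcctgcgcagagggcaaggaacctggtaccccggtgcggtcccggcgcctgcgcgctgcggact
DPF2 start site summit: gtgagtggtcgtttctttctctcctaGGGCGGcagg

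PHF10 (ENSG00000130024.15, chr6:169703902-169725566, minus strand), the paralogue in PBAF, had the lowest promoter fold of the 3, though its interval overlapped that of DPF2. Its promoter peak was 339 bp wide and had a fold of 6.70 (3.71 to 11.3), at a pileup of 12, with the summit 208 bp downstream of the canonical TSS in exon 1. It counts as a promoter peak only because the summit was 287 bp upstream of the TSS of another transcript. The same summit was in the promoter of the gene ENSG00000227704, so the signal cannot be assigned to PHF10 alone. Only 3.95% of protein-coding genes with a promoter peak had a lower one. A stronger peak (14.4; 9.68 to 20.8) followed in intron 1, 1745 bp downstream of the canonical TSS. The highest fold near PHF10, 43.3, belonged to the promoter that C6orf120 and WDR27 share beyond its 3′ end, and a peak in WDR27 had a fold of 19.1. The 101 bp directly upstream of the PHF10 TSS, chr6:169724501-169724601 on the minus strand, are shown because they are among the most GC-rich starts of the group at 88.1% G or C, with GGGCGG in capitals (runs in capitals where copies overlap).
PHF10 before the start site: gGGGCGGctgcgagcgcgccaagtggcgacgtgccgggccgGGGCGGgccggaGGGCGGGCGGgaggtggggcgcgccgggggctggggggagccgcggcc

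Upstream of PHF10 the library had no peak for a long distance. The next summit was 211.1 kb upstream of the canonical TSS. A stretch of 194.9 kb, chr6:169724799-169919706, which starts 299 bp upstream of the canonical TSS and 356 bp past the end of the promoter peak, has a copy on an alternative sequence of hg38 at 98.6% identity (100% over the 20.8 kb in the PHF10 flank). It contained 0 peaks although 2 protein-coding genes start in it, and it covered most of the upstream promoter window of PHF10 and its coding TSS 1.066 kb upstream. The authors removed reads of low mapping quality, a filter that takes out reads with more than 1 equal match. The absence of peaks there is therefore not a measurement of closed chromatin, and the part of the copy in the low promoter fold of PHF10 was not tested. None of the other 9 genes had a copy of 1 kb or more at 95% identity in its region. Among the genes set beside them, the regions of SMARCB1 and LHX1 lay wholly within such copies, each with 0 peaks, and so did 67.1% of the PTPRC region, with 0 peaks inside. The alternative sequence that holds the SMARCB1 copy had 3 peaks. The lack of a promoter peak at these genes is for the same reason not a measurement.

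**Figure D2:**
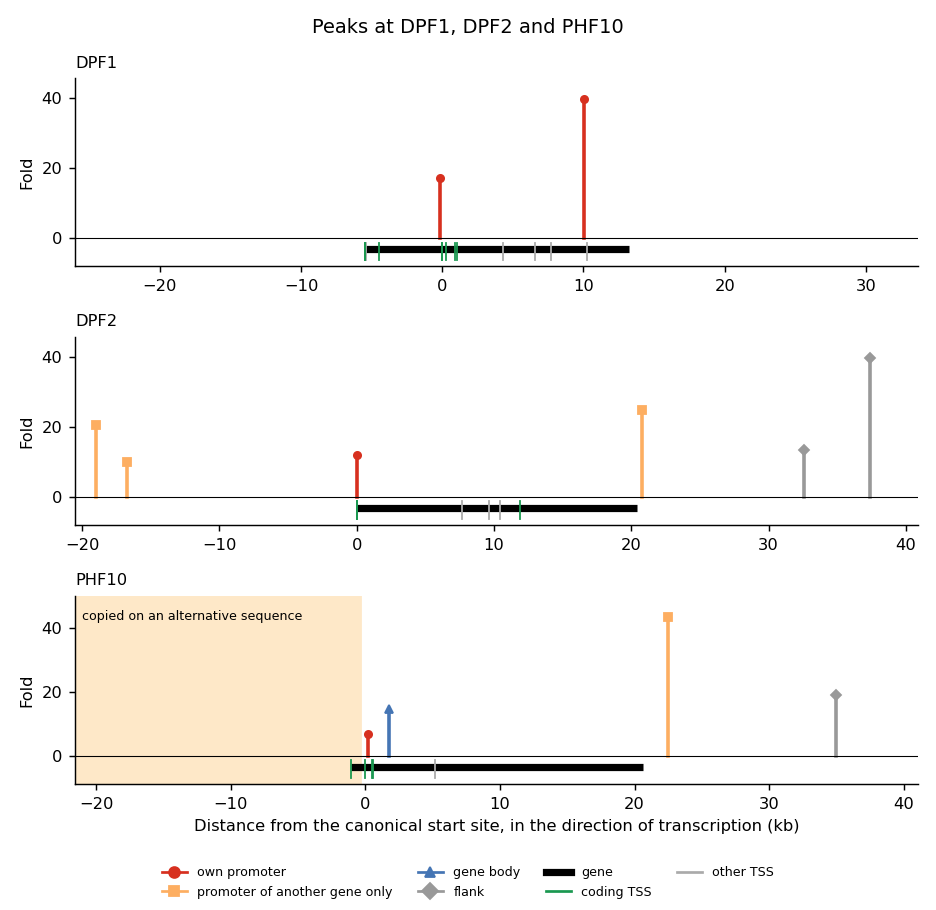
Peaks at DPF1, DPF2 and PHF10 by the distance of their summit from the canonical TSS in kb, in the direction of transcription, with the fold as height on a linear axis. Black bars are the gene records, green ticks TSSs of coding transcripts, grey ticks other TSSs, and the shaded area is the stretch upstream of PHF10 that has a copy on an alternative sequence. The stronger DPF1 peak (39.7) sits inside the gene, DPF2 has 1 peak of its own among higher neighbours, and PHF10 has no peak in the shaded stretch.

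The ratio of the recovered pileups gives the difference between paralogues with its counting error. DPF1 exceeded DPF2 by a ratio of 3.45 (exact conditional 95% interval, 2.13 to 5.83) and PHF10 by 6.33 (3.42 to 12.8) at the strongest promoter summit. With the canonical TSSs alone the ratio of DPF1 to DPF2 was 1.45 (0.819 to 2.63), so that difference rested on the internal site of DPF1. The ratio of 6.33 used that internal site too. PHF10 had no promoter peak at its canonical TSS, so no ratio with PHF10 was formed there. Most of its upstream promoter window lay in the copied stretch, which limits every ratio with PHF10 given here. DPF2 and PHF10 were not separated at this depth, with a ratio of 1.83 (0.869 to 4.06). DPF3, the family member the study overexpressed, had a promoter fold of 20.1 in these control cells. DPF1 was above it by a ratio of 2.0 (1.34 to 3.04), but not at the canonical TSS (0.842; 0.509 to 1.38). DPF2 was at 0.579 of DPF3 (0.326 to 1.004), so they were not separated at this depth, and PHF10 was at 0.316 (0.150 to 0.617). Because folds refer to a single background, they also vary with the copy number of a chromosome, which was not measured. Relative to the median promoter fold of its own chromosome, DPF1 stood at 2.03, DPF2 at 0.451 and PHF10 at 0.260, in the same order.

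The ARID subunits define the complexes, ARID1B that of cBAF and ARID2 that of PBAF, and both are tumour suppressor genes. ARID1B (ENSG00000049618.25, chr6:156776020-157210779, plus strand) was the richest locus in number, with 29 peaks of which 28 lay in the gene. The gene is also the longest of the 10 at 434.8 kb, and per 100 kb the count was 6.11, near the 6.21 of all 10 regions together. Its main start was moderate, with a fold of 12.9 (8.44 to 18.9) at 34 bp upstream of the canonical TSS and 9.28 at 724 bp downstream. Higher promoter peaks lay at start sites far inside the gene. The summit 51211 bp downstream had a fold of 23.7 and was 784 bp upstream of a transcript with a retained intron, and that 244255 bp downstream had a fold of 27.8 (21.0 to 36.2) and was 653 bp upstream of a coding transcript. A peak with a fold of 20.6 in intron 1 was at the promoter of the microRNA gene MIR4466 and a lncRNA. Compared with its paralogue ARID1A, ARID1B was level at the strongest promoter summit (ratio 0.914; 0.618 to 1.35) and lower at the canonical TSS (0.511; 0.299 to 0.852).

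The strongest peaks of ARID1B had their summits outside its promoter windows. The highest had a fold of 46.9 (37.8 to 57.5), at a pileup of 90, in intron 2, 62354 bp downstream of the canonical TSS, and was higher than 95.02% of all peaks. The second had a fold of 45.3 (36.4 to 55.8) in intron 8, 371738 bp downstream and 205 bp past the TSS of a shorter coding transcript, just outside the promoter window used here. Their summit windows, chr6:156839682-156839782 and chr6:157149066-157149166 on the plus strand, are shown because both hold GGAATG, the TEAD motif read on the reverse strand, in capitals. That motif was present at 9.41% of all summits and at 5 of the 86. Another intronic peak, with a fold of 26.8 and 240677 bp downstream, held both the TEAD and the AP-1 motif.
ARID1B top summit: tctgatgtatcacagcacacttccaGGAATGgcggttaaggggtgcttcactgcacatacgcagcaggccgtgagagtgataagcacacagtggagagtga
ARID1B second summit: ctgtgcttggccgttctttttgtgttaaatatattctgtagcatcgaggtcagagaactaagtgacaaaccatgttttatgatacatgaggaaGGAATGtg

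ARID2 (ENSG00000189079.18, chr12:45729706-45908040, plus strand) was the only member without a promoter peak, yet its start lay in open DNA. A peak 3126 bp wide, wider than 99.6% of all peaks, ran from chr12:45726999-45730124 across the ARID2 TSS with a fold of 42.3 (33.7 to 52.4). Its summit was 1993 bp upstream, in the lncRNA gene LINC00938, and so outside the window of 1 kb. A small peak with a fold of 7.21 lay 1010 bp downstream of the TSS. A list with 1 summit for each peak cannot tell how much of the broad peak's height lay at the ARID2 TSS itself. The rest of the gene held 1 further peak, with a fold of 5.15, and the density of 2.29 per 100 kb was below the median of protein-coding genes, 4.56.

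**Figure D3:**
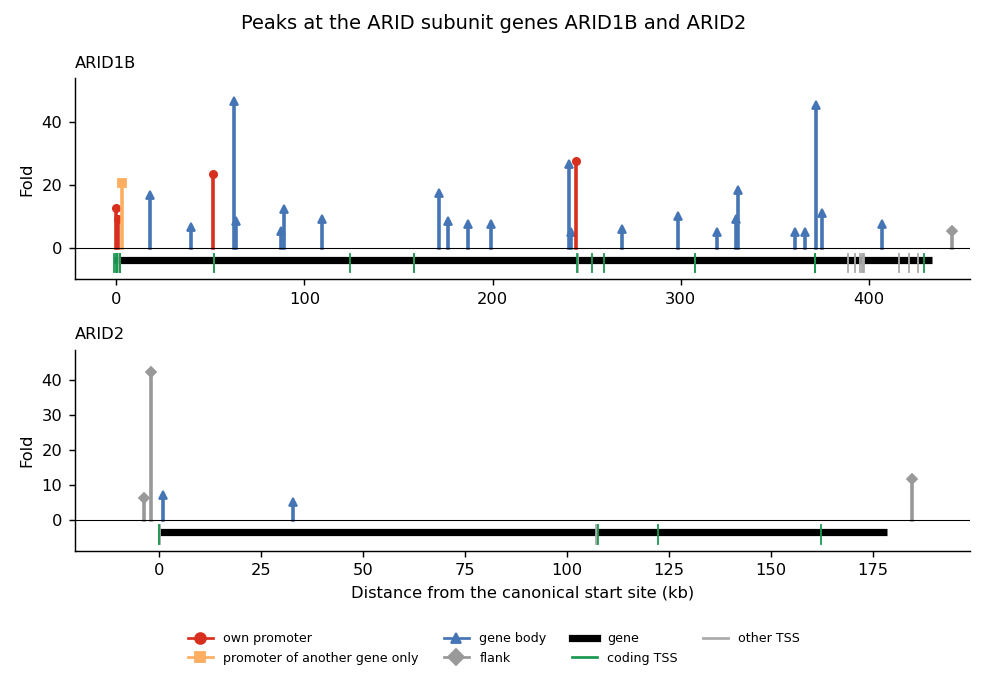
Peaks at ARID1B and ARID2 by the distance of their summit from the canonical TSS in kb, with the fold as height on a linear axis and symbols as in the map of the paralogues. ARID1B has peaks along the whole gene, the highest (46.9 and 45.3) with summits outside its promoter windows. The peak of fold 45.3 runs across a coding TSS, with its summit 205 bp past it. At ARID2 the peak of fold 42.3 has its summit 1.993 kb upstream of the TSS.

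The bromodomain subunits BRD7 of PBAF and BRD9 of ncBAF are paralogues that bind acetylated histones. BRD7 (ENSG00000166164.17, chr16:50313487-50368988, minus strand) had a promoter fold of 9.28 (5.62 to 14.5), at a pileup of 17. The summit was 174 bp downstream of the canonical TSS and 35 bp upstream of that of another coding transcript, in a peak 996 bp wide. The highest fold near BRD7 was 18.0, in ADCY7 beyond its 3′ end. BRD9 (ENSG00000028310.18, chr5:850291-892801, minus strand) had a promoter fold of 33.0 (25.5 to 42.0), at a pileup of 63, with the summit 54 bp downstream of the canonical TSS. This peak was 2632 bp wide and also covered the promoter of TRIP13, a gene of meiotic and mitotic checkpoint control that starts on the other strand, so the signal cannot be divided between the 2 genes. The ratio of BRD9 to BRD7 was 3.71 (2.14 to 6.76). Promoter peaks on chromosome 5 had a high median of 30.4, and relative to its own chromosome BRD9 stood at 1.08 and BRD7 at 0.391.

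The tallest of the 86 peaks was in the BRD9 flank. It lay 19836 bp upstream of the BRD9 TSS in an intron of TRIP13, at the promoter of the lncRNA gene ENSG00000287600, and had a fold of 116.5 (101.8 to 132.6), at a pileup of 225, which was higher than 99.95% of all peaks. Over its 1860 bp it held 6 copies of TGANTCA, the site of the AP-1 factors FOS and JUN, where no other of the 86 peaks held more than 3. Of these, 5 were within 200 bp of the summit, and consecutive copies were 53, 47, 49 and 99 bp apart. The summit window, chr5:912587-912687 on the minus strand, shows 2 of the copies in capitals, each followed by the same run of bases.
BRD9 flank summit: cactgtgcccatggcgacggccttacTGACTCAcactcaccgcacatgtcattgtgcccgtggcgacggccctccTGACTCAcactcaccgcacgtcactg
The spacing and the common run show a short unit repeated in the reference. The number of units in 786-O was not measured, and its part in the height of the peak was not tested.

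BICRA (ENSG00000063169.12, chr19:47608196-47703277, plus strand), also called GLTSCR1, is a scaffold subunit of ncBAF. It had 13 peaks but a low promoter, with folds of 10.8 (6.81 to 16.4) at 467 bp and 7.73 at 1011 bp upstream of the canonical TSS, each at a coding TSS. The summit with a fold of 10.8 was also in the promoter of the gene ENSG00000277383, so its signal cannot be assigned to BICRA alone. The strongest peak, with a fold of 33.0, was 8640 bp upstream in no other gene. Its paralogue BICRAL had no promoter peak, so no ratio was formed.

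SS18, the subunit fused to SSX proteins in synovial sarcoma, and BCL7A, a small nucleosome-binding subunit, are not limited to 1 complex. SS18 (ENSG00000141380.14, chr18:26016253-26091217, minus strand) was the plainest locus, with 2 peaks in all and 1.74 per 100 kb. The promoter peak had a fold of 28.3 (21.4 to 36.8), at a pileup of 54, with the summit 165 bp upstream of the canonical TSS, and the other had a fold of 8.76 beyond the 3′ end. SS18 exceeded its paralogue SS18L1 by a ratio of 1.80 (1.13 to 2.91). BCL7A (ENSG00000110987.9, chr12:122019422-122062044, plus strand) was the reverse, with 11 peaks, the highest density of the 10 at 13.3 per 100 kb, and the lowest promoter. Its promoter folds of 5.67 (2.99 to 9.99) and 5.15 (2.64 to 9.32), at 26 bp downstream and 334 bp upstream of the canonical TSS, rested on pileups of 10 and 9, the latter the lowest in the list. BCL7A stood at 0.0758 of BCL7B (0.0355 to 0.144), the widest difference among the paralogues compared, and at 0.217 of BCL7C (0.0978 to 0.437). At the canonical TSS alone BCL7B had no promoter peak, so the ratio to BCL7B rested on another of its start sites. The ratio to BCL7C was unchanged there.

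The other peaks of BCL7A were higher. A peak in intron 3 had a fold of 24.7 and the promoter of MLXIP downstream 22.7. The highest, 41.7 (33.2 to 51.8), was 2938 bp wide and lay just beyond the 3′ end in LINC02985, 43171 bp downstream of the TSS. Its summit window, chr12:122065005-122065105 on the plus strand, is shown because it carries an AP-1 site, TGAGTCA in capitals, unlike both BCL7A promoter summits.
BCL7A downstream summit: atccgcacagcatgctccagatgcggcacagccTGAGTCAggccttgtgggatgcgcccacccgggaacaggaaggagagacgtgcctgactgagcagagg

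By complex, the strongest promoter folds were 27.8, 39.7 and 11.9 for the cBAF subunits ARID1B, DPF1 and DPF2. For PBAF they were 9.28 at BRD7 and 6.70 at PHF10, with ARID2 lacking a promoter summit. For ncBAF they were 33.0 at BRD9 and 10.8 at BICRA. Among the members of only 1 complex the PBAF folds were the lowest, and BCL7A, found in all 3, had 5.67. However, PBRM1, a further PBAF subunit, had 12.4 (8.03 to 18.3), above DPF2 and BICRA, so the complexes did not separate by promoter fold. With 2 or 3 genes a complex and 1 library, no test of a difference between complexes was possible. The intervals of BRD7 and PHF10 overlapped those of BICRA and DPF2, and the broad peak at ARID2 had a fold of 42.3.

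Over all 86 peaks, 15 had their summit at a promoter of the member itself and 9 at that of another gene only, while 39 were in the gene body and 23 in the flanks. Together 24 were at a promoter of any gene, or 27.9% (exact 95% interval, 18.8 to 38.6), compared with 19.4% of all peaks. The flanks were chosen around genes and so hold neighbouring promoters. The median folds were 11.9 at own promoters, 20.6 at promoters of other genes, 8.76 in gene bodies and 9.79 in flanks, and 9.79 over all 86 compared with 10.8 over the whole list. The strongest peak of the region was at the gene's own promoter only for SS18 and DPF1, 2 of 10, where 37.1% of protein-coding genes with a peak nearby had it there. In the other 8 its summit was in an intron (ARID1B), in another gene or in a flank. At ARID2, however, this strongest peak (42.3) ran across the gene's own TSS and failed only by the place of its summit. A pileup under 15 lay behind 30 of the 86, and values of single weak peaks carry wide intervals for that reason.

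**Figure D4:**
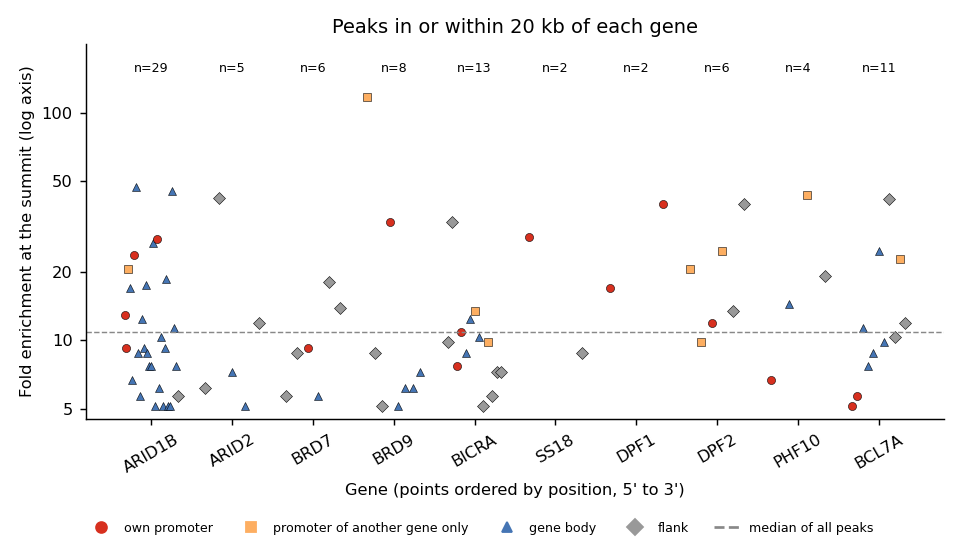
Fold enrichment, on a log axis, of each of the 86 peaks in or within 20 kb of the 10 genes, ordered within a gene from 5′ to 3′, with the number of peaks above. Symbols give the place of the summit and the dashed line is the median fold of all peaks (10.8). The highest peak of a gene has its summit at its own promoter (red circles) only for SS18 and DPF1. The highest peak of ARID2 runs across its TSS with the summit outside the promoter window. The BRD9 flank holds the highest of all (116.5).

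The own promoters were GC-rich at the median, a property that the choice of members did not use, though not without exception. The median G or C content of the 101 bp around the 15 own promoter summits was 69.3%, compared with 62.4% at all promoter peaks. It was 44.6% at the ARID1B site 51211 bp downstream and 56.4% at the internal DPF1 site. The median was 53.5% at the other 71 member peaks and 49.5% over the whole list. In RefSeq's promoter table for hg38, which covers 250 bp before to 50 bp after a start and held 9 of the 10 genes, PHF10 had 85.3% G or C, more than 99.8% of the 35116 promoters there. BCL7A followed with 80.3%, more than 97.7%. These 2 most GC-rich starts had the 2 lowest promoter folds, while BRD9, at 77.3%, had a high one. PCR amplification can lose very GC-rich DNA, and its part in the low folds was not tested. The median of that table was 58.7%, and for DPF1 its entry describes the cluster of starts more than 5 kb upstream, where no peak was found.

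Among 11 motifs, none of which contains another, sought on either strand in the 101 bp centred on a summit, SP/KLF (GGGCGG) stood out by count. It was at 8 of the 15 own promoter summits and at 12 of the 24 promoter summits of any gene, compared with 29.1% of all promoter peaks, and in 10 of the 13 RefSeq promoters of the matched members, compared with 45.0% of that table. The 8 are among the 12, and the RefSeq windows of BRD9 overlap, so these are not separate counts. GGGCGG is all G and C, and the own promoter summits were more GC-rich than all promoter peaks (medians, 69.3% and 62.4%). The part of base composition in these counts was not tested. AP-1 (TGANTCA) was at 13 of the 62 summits away from promoters, close to the 22.9% of all such peaks, and at 1 own promoter summit, the ARID1B site 51211 bp downstream of its canonical TSS. RUNX (TGTGGT) was at 11 of the 86, compared with 12.6% of all peaks, NFY (CCAAT) at 5, compared with 12.8%, the E-box (CACGTG) at 2, compared with 2.04%, and ETS (CCGGAAGT) at 1, compared with 0.513%. NRF1 (GCGCATGCG), CRE (TGACGTCA) and CTCF (AGGGGGCGC) were at none, and these were also rare in the whole list, at 0.169%, 0.264% and 0.509% of all peaks. A match is a run of letters and not evidence that a factor was bound.

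**Figure D5:**
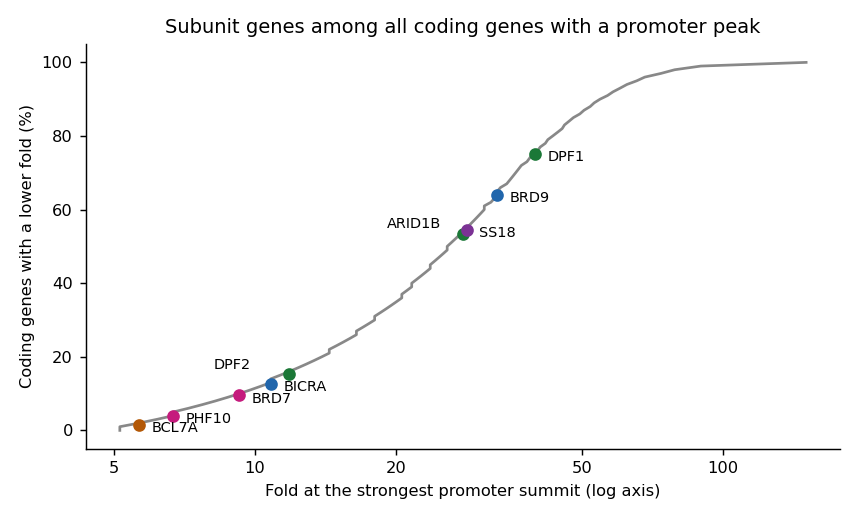
Share of the 12299 protein-coding genes with a promoter peak whose strongest promoter fold was below a given value (grey line; log axis), with the 9 member genes that had one as points coloured by complex as in the plot of promoter folds. DPF1 lies above 75.2% of genes, and BCL7A and PHF10 lie above 1.40% and 3.95%.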

How the data were processed

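The data were the ATAC-seq peaks of 1 empty-vector library of 786-O cells. According to the study's methods and the submitters' processing notes, fastp was used by the authors for trimming and Bowtie2 2.3.4.3 for alignment to hg38, after which they removed mitochondrial reads, reads of low mapping quality and duplicates, and called peaks with MACS2 2.2.6 against a single genome-wide background. A shift of reads to the Tn5 cutting position and a minimum score after calling are not given in the sources used here, and the label says empty vector although names of peaks hold the letters WT. The deposited list gives for each peak a fold, the ratio of summit pileup plus 1 to background plus 1, a −log10 p-value, a −log10 q-value and a score taken from the q-value by the authors. The lowest score was 52, whereas the q-value limit that the study states for calling ATAC-seq peaks corresponds to a lower score. The absence of a peak therefore means only that none with such a score was listed. Total reads are unknown. With a background pileup of 0.941, the pileups recovered from the folds were whole to within 1.83e-05.

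The 10 genes and all lists were chosen with earlier results of these data known. Summits were assigned with GENCODE release 44. Another gene of the marker list is not reported here, and the counts leave it out. The text names every member with its promoter peaks and strongest peak, the SWI/SNF genes of a fixed list, and neighbours at whose promoter a described peak lay. Neighbours known only by an Ensembl identifier were not all named. Intervals of folds, shares and pileup ratios are exact (Poisson, Clopper-Pearson and conditional binomial). Copies of member regions elsewhere in hg38 were sought with minimap2 2.31 (at least 1 kb, 95% identity). Python 3.11.15 was used with scipy 1.17.1, pandas 2.3.3, numpy 2.4.6 and, for figures, matplotlib 3.10.9, and the assignment was tested on simulated data. Alternatives were other score minimums, flanks, promoter windows, TSSs and overlap in place of summits.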

Additional observations from a re-analysis of the deposited data

How the results depend on the processing

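No paired analysis was possible because the list came from a single library. Restricting to TSSs of protein-coding transcripts and leaving out PHF10 were chosen after seeing the data. Of the alternative values of the main counts, shares and medians, 22 stayed within 1.5 times or within the counting interval and 11 moved. With a score above 100 the median promoter fold rose from 11.9 to 27.8, as PHF10 and BCL7A lost their promoter peaks. With a score above 200 there were 35 peaks, 5 members with a promoter peak, without BRD7 and BICRA as well, a median of 28.3 and a promoter share of 42.9%. A score minimum is a fold minimum by construction. The gene record alone held 55 peaks. A promoter of 1 kb to both sides gave a share of 39.5% and added ARID2 (7.21), and one of 2.5 kb gave 46.5% with a median of 21.4. With 2.5 kb, or with overlap of the interval (median 20.1), ARID2 had 42.3. Without PHF10 the median was 19.8, since 8 genes remain and the midpoint then falls in the gap between DPF2 and ARID1B. Single promoter folds moved for ARID1B (12.9 with the canonical TSS, 45.3 with 2.5 kb), for DPF1 (17.0 with the canonical TSS or coding transcripts) and for PHF10 (14.4 with 2.5 kb). The depth limits weak promoters most, and a pileup of 12 or 10 does not order PHF10 and BCL7A.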
